A study of Mus musculus with 6 samples.

Results

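The genes described here organize the ER exit site, the patch of endoplasmic reticulum (ER) membrane where newly folded procollagen is loaded into carriers bound for the Golgi. The set holds 10 genes chosen by function: Mia3, Mia2, Sec16a, Sec16b, Preb, Tfg, Klhl12, Sec23ip, Pdcd6 and Trappc2. Every probe set whose platform annotation names 1 of them was taken, with Ctage5 read as Mia2, for which RefSeq lists it as a synonym. That gave 19 probe sets of 45037 on the array, at least 1 for each gene, and all 19 name a single gene. They were read in MC3T3-E1 subclone 4 cells, a mouse calvarial pre-osteoblast line. All were grown in α-MEM made without ascorbic acid (AA), supplemented with 10% FBS. The 3 AA cultures received AA, a cofactor of the collagen prolyl and lysyl hydroxylases, at 50 µg/ml for 5 days. The 3 control cultures were left untreated for the same 5 days. Each RNA went on its own Affymetrix Mouse Genome 430 2.0 array, which gives 1 signal per probe set. The sources speak both of triplicate experiments and of multiwell plates grown in triplicate, and the labels do not say which the arrays are. The p-values therefore speak for these 6 cultures only. Those of the main fit use the differences between same-numbered AA and control cultures and a variance partly borrowed from other probe sets. Control replicate 3 stood apart on both RNA quality measures. Its signal at the 3' control probe set over that at the 5' one was 0.920 for Gapdh and 1.79 for actin, against 0.791 to 0.799 and 1.35 to 1.45 in AA cultures and 0.807 to 0.809 and 1.39 to 1.43 in the other control cultures.

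COPII is the protein coat that buds carriers from the ER. The GTPase Sar1 starts the coat after the membrane protein Sec12, encoded by Preb, loads it with GTP, and the Sec23-Sec24 and Sec13-Sec31 layers follow. Procollagen is a rigid rod too long for an ordinary COPII vesicle. TANGO1, the product of Mia3, spans the ER membrane, holds procollagen through the collagen chaperone Hsp47 on the inner side and binds Sec23 on the outer side. It works with the related protein cTAGE5 from the Mia2 locus. Sec16 is the scaffold on which exit sites form, and Tfg, Sec23ip, Klhl12, Pdcd6 and Trappc2 shape, tether or regulate the coat.

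In AA cultures 4 of the 10 genes rose by their brightest probe set: Sec16a, Sec16b, Sec23ip and Tfg. None fell. The scaffold gene Sec16a had the largest change, 1.56-fold, and was the one whose brightest probe set kept its call whichever culture was left out. Mia3 itself did not pass, at 1.22-fold by its brightest probe set. By probe set, 6 of 19 were higher and 0 lower in limma once p-values were adjusted over the whole array (threshold 0.05), against 2.71% of all probe sets higher and 2.5% lower. Among the probe sets above the median signal, where 17 of the 19 lie, the test called 5.23% higher and 4.83% lower. At an unadjusted p under 0.05, 11 of the 19 were higher and 0 lower, against 8.58% and 9.41% of all probe sets and 14.1% and 15.7% of those above the median signal. The median log2 fold change, AA over control, was 0.29 over the 19 probe sets and -0.0075 over all probe sets. Fold changes come from log2 signals that were quantile-normalized between the arrays, in a limma fit with the replicate number as a block. Signals are given as deposited, on a linear scale and in the order of replicates 1, 2 and 3. The count of 6 was sensitive to single cultures. It was 2, 1 and 3 without replicates 1, 2 and 3 of both groups, 3 (both Sec16a probe sets and Sec16b) without control replicate 3 alone and no replicate block, 1 (Sec16a) when the arrays were centred on their medians instead, and 0 when the prior variance was held at 1 value for all signals.

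**Figure D1:**
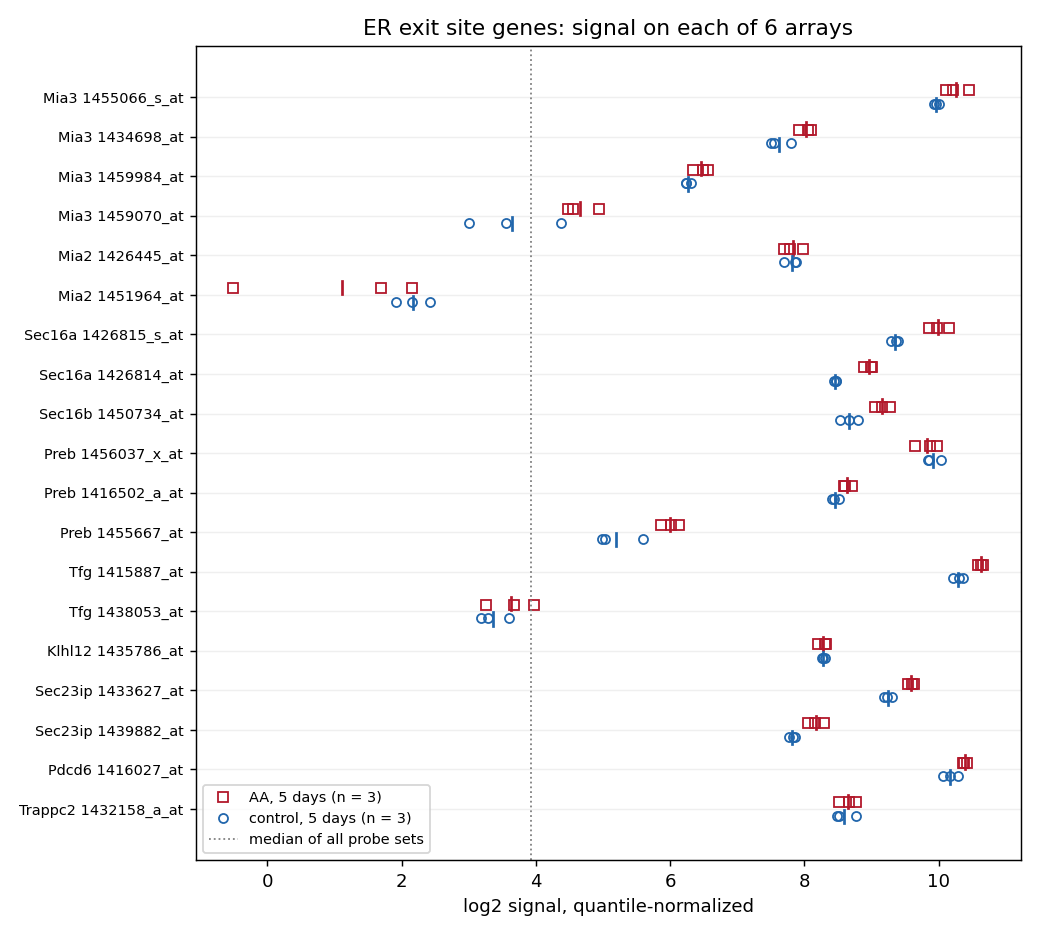
Log2 quantile-normalized signal (x axis) of each of the 19 probe sets (rows) on the 6 arrays, squares for AA cultures and circles for control cultures (n = 3 each), with a short line at each mean and a dotted line at 3.93, the median of all probe sets. The squares lie to the right of all circles for both Sec16a probe sets, while for Klhl12 and Trappc2 the groups overlap.

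Sec16a encodes the large peripheral membrane protein that concentrates COPII at the exit site. Its brightest probe set (1426815_s_at) had signals of 1136, 998 and 925 in AA cultures, against 673, 632 and 664 in control cultures. All AA cultures were above all control cultures, and the log2 fold change was 0.64 (standard error 0.08, 95% interval 0.45 to 0.83, adjusted p = 0.00441 from limma). The second Sec16a probe set (1426814_at) had signals of 505, 503 and 471 in AA cultures, against 359, 359 and 355 in control cultures. Here too the groups did not overlap, and both were tight (log2 fold change 0.50, adjusted p = 0.0131). Leaving out a replicate pair or a single array gave adjusted p of 0.00181 to 0.0348 for the brightest probe set. For the second it was 0.106 without replicate 2, 0.0614 without AA replicate 2 and no replicate block, and 0.0764 after median centring.

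Sec16b encodes the shorter paralogue, which joins Sec16a at exit sites. Its only probe set (1450734_at) read 608, 521 and 571 in AA cultures, against 413, 376 and 453 in control cultures. The groups did not overlap, and the log2 fold change was 0.49 (standard error 0.09, 95% interval 0.29 to 0.69, adjusted p = 0.0169). This call was lost without replicate 1 (adjusted p = 0.0564), without replicate 2 (adjusted p = 0.114) and after median centring (adjusted p = 0.0856). With no replicate block it was also lost without AA replicate 1, 2 or 3 (adjusted p = 0.0843, 0.0619 and 0.0753) and without control replicate 2 (adjusted p = 0.0846). The log2 fold change stayed between 0.43 and 0.56 over all fits with a pair or an array left out.

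Promoters of the members are shown here because 4 genes of the set carry the same 6-base core close to their start. The RefSeq table (GRCm38.p6) gives 13 promoters for the 10 genes, each from 250 bases before to 50 after a start. The letters TGACGT, searched on both strands, are the core of the cAMP response element and of the sites of the unfolded protein response factors ATF6 and XBP1 and of the CREB3 family. They occurred in 4 of the 13, against 7.51% of the 32851 promoters in the table. The stretches below end at or before the last base upstream of the start, and capitals mark the core.
Sec16a, chr2:26445217-26445278, minus strand: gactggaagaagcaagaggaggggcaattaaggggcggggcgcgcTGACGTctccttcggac
Sec16b, chr1:157506707-157506795, plus strand: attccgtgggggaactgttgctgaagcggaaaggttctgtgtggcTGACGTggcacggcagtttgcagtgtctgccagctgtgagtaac
Mia3, chr1:183369601-183369696, minus strand: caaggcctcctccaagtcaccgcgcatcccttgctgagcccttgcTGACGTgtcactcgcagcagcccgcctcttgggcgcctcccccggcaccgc
Klhl12, chr1:134455423-134455530, plus strand: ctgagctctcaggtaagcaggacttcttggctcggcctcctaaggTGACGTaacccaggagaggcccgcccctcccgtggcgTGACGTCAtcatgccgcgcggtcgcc
The core lay with its first base 17, 44 and 86 bases before the start in Sec16a, Sec16b and Mia3, and at 63 and 26 bases before it in Klhl12.

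In Sec16b (1 of its 2 promoters) and Mia3 the core was followed by G, giving TGACGTG, which 2.01% of all promoters hold. Klhl12 had 1 core on its own and the full palindrome TGACGTCA, which contains it on both strands and occurs in 1.79% of all promoters. The longer ER stress element, CCAAT and CCACG with 9 free bases between them, was in 0 of the 13 and in 0.119% of all. Of the 4 genes with the core, Sec16a and Sec16b rose and Mia3 and Klhl12 did not pass, while Tfg and Sec23ip rose with no core in this window. A match of letters is not a shown binding site, and the share was not tested.

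TANGO1 was read by 4 Mia3 probe sets, and none passed although all had a higher mean in AA cultures. The brightest (1455066_s_at) had signals of 1415, 1192 and 1107 in AA cultures, against 983, 1021 and 1003 in control cultures. No AA culture reached down to the controls, but AA replicate 1 stood above the other AA cultures, and the log2 fold change was 0.29 (standard error 0.09, 95% interval 0.08 to 0.50, adjusted p = 0.124 from limma). The next (1434698_at), which cites the same expressed sequence, read 268, 261 and 244 in AA cultures, against 188, 227 and 184 in control cultures. Its groups did not overlap either (log2 fold change 0.40, 95% interval 0.16 to 0.64, adjusted p = 0.0706).

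The 2 remaining Mia3 probe sets were dimmer. The brighter of them (1459984_at) averaged 88.3 ± 6.22 in AA and 77.1 ± 4.61 in control cultures (SD, n = 3 each), with overlapping groups (log2 fold change 0.20, adjusted p = 0.507). The dimmest (1459070_at) had signals of 30.3, 24.2 and 22.5 in AA cultures, against 7.41, 22.4 and 10.9 in control cultures, around the median signal of all probe sets. Its log2 fold change of 1.01 had a 95% interval of 0.13 to 1.90 (adjusted p = 0.211). In none of the alternative fits run did a Mia3 probe set pass, and averaging them gave 0.48 for Mia3 on the log2 scale (adjusted p = 0.106).

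Among genes above the median signal, those whose brightest probe set ran most like that of Mia3 over the 6 arrays were Nat8f1, Rassf7 and Abcb6. Likeness was the root-mean-square difference after each profile was centred on its mean, and it came to 0.038, 0.045 and 0.045 on the log2 scale over 10821 genes compared. None of the 3 passed the test between AA and control. Of the members, Tfg was nearest to Mia3 by this measure, at 0.114 and rank 509, and Pdcd6 next, at 0.126 and rank 745.

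cTAGE5 is the partner that binds TANGO1 and Sec12. The Ctage5 probe set of the Mia2 locus (1426445_at) had signals of 248, 205 and 223 in AA cultures, against 209, 236 and 237 in control cultures. The groups overlapped, and the log2 fold change was 0.013 (95% interval -0.26 to 0.28, adjusted p = 0.977), with a sign that turned on the signals as deposited (-0.014) and after median centring (-0.068). The interval allows a rise of up to 1.22-fold and overlaps that of Mia3. The probe set annotated Mia2 (1451964_at) was near the floor of the array, with 3.38, 4.66 and 0.687 in AA cultures and 4.16, 5.85 and 3.47 in control cultures. Its groups overlapped, and its log2 fold change of -1.05 had a 95% interval of -2.76 to 0.66 (adjusted p = 0.536). Whether Mia3 and Mia2 differed in their response was not tested.

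**Figure D2:**
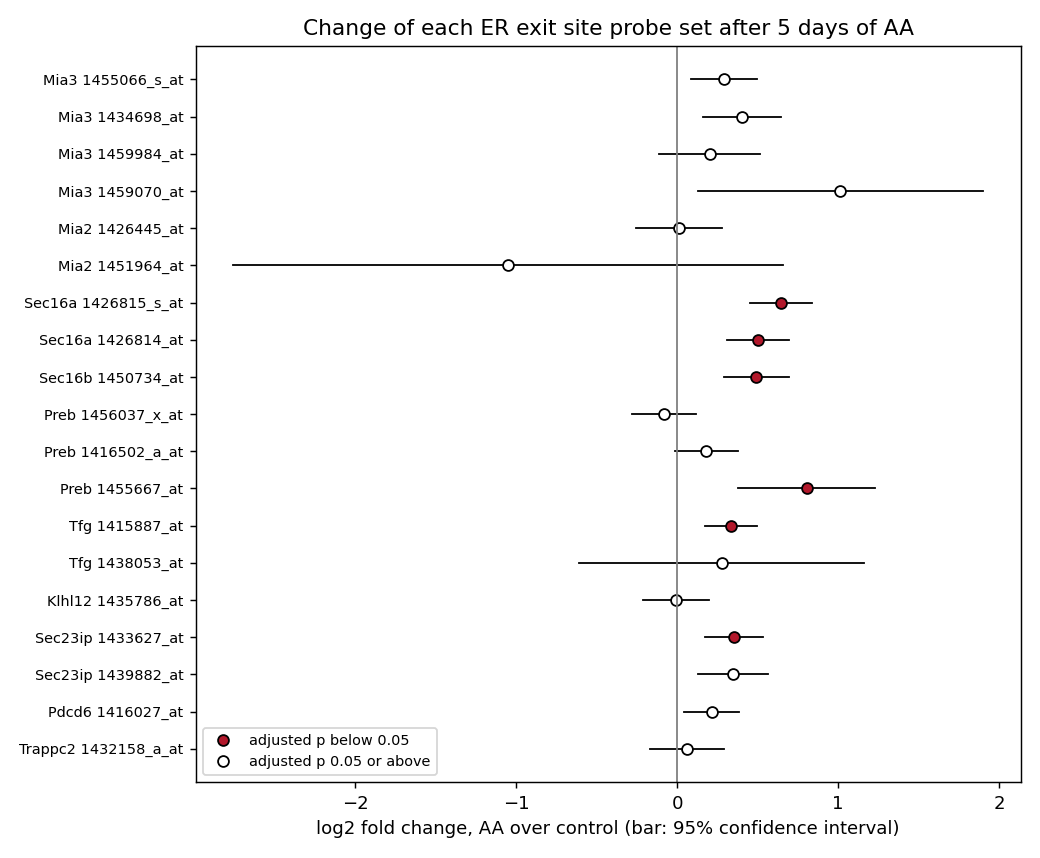
Log2 fold change of each of the 19 probe sets, AA over control (x axis), with its 95% confidence interval from limma as a horizontal bar and filled points at an adjusted p under 0.05. The 6 filled points are both Sec16a probe sets and 1 each of Sec16b, Preb, Tfg and Sec23ip, and the widest bars belong to the dim Mia2, Mia3 and Tfg probe sets.

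Preb, which encodes the Sar1 exchange factor Sec12, depended on the probe set. The brightest (1456037_x_at) read 804, 1004 and 930 in AA cultures, against 919, 928 and 1054 in control cultures. The groups overlapped, and the log2 fold change was -0.082 (95% interval -0.28 to 0.12, adjusted p = 0.706). On this platform the suffix x marks probes that can also match other transcripts. The middle one (1416502_a_at) read 374, 412 and 394 in AA cultures, against 351, 372 and 347 in control cultures. The groups were apart but close, and the probe set did not pass limma (log2 fold change 0.18, adjusted p = 0.315), although it reached an unadjusted p under 0.01 in the methods' t-test.

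Only the dimmest Preb probe set (1455667_at) rose, with signals of 68.9, 65.0 and 58.7 in AA cultures, against 47.4, 34.9 and 30.5 in control cultures. All AA cultures were above all controls (log2 fold change 0.80, standard error 0.18, adjusted p = 0.0462). That call was lost without the replicate block (adjusted p = 0.0630), after median centring (adjusted p = 0.0549), and with 50 added to every signal, which also lowered the log2 fold change to 0.39 (adjusted p = 0.0895). It was lost without replicate 1, 2 or 3 too (adjusted p = 0.0594, 0.255 and 0.0953), and with no replicate block it held in 1 of the 6 fits with an array left out.

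Tfg encodes a protein that assembles into a ring between the ER exit site and the first Golgi-bound compartment and binds Sec23. Its bright probe set (1415887_at) had signals of 1657, 1563 and 1594 in AA cultures, against 1308, 1164 and 1272 in control cultures. The groups were well apart, and the log2 fold change was 0.34 (standard error 0.07, 95% interval 0.18 to 0.50, adjusted p = 0.0319). The call was lost without replicate 1, 2 or 3 (adjusted p = 0.0797, 0.204 and 0.0601) and after median centring (adjusted p = 0.236). With no replicate block it held without control replicate 1 (adjusted p = 0.0315) and was lost without each other array (adjusted p up to 0.103). The other Tfg probe set (1438053_at) was below the median signal of the array, at 12.9 ± 3.44 in AA and 10.3 ± 2.76 in control cultures (SD, n = 3 each), and its groups overlapped (log2 fold change 0.28, adjusted p = 0.788).

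Sec23ip encodes p125, which bridges Sec23 and Sec31 in the inner and outer coat layers. Its brighter probe set (1433627_at) read 749, 774 and 795 in AA cultures, against 608, 636 and 591 in control cultures. The groups did not overlap, and the log2 fold change was 0.35 (standard error 0.08, 95% interval 0.17 to 0.54, adjusted p = 0.0430). The second (1439882_at) read 306, 280 and 267 in AA cultures, against 232, 232 and 220 in control cultures. It was apart as well, with a near-equal log2 fold change of 0.35, and did not pass (adjusted p = 0.0847). The first call was lost without replicate 1, 2 or 3 (adjusted p = 0.0896, 0.176 and 0.113), without each of the 6 arrays in the fits with no replicate block (adjusted p = 0.0571 to 0.134), on the signals as deposited (adjusted p = 0.0621), with 50 added to every signal (adjusted p = 0.0691) and after median centring (adjusted p = 0.237).

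Klhl12 and Pdcd6 act on the outer coat. KLHL12 is the substrate adaptor of the ubiquitin ligase CUL3 for Sec31, and Pdcd6 encodes ALG-2, a calcium-binding protein that attaches to Sec31 and serves with PEF1 as a co-adaptor of KLHL12. Klhl12 (1435786_at) had signals of 288, 312 and 315 in AA cultures, against 311, 320 and 316 in control cultures. The groups overlapped, and the log2 fold change was -0.0082 (95% interval -0.21 to 0.20, adjusted p = 0.980). Pdcd6 (1416027_at) had signals of 1389, 1339 and 1314 in AA cultures, against 1253, 1059 and 1161 in control cultures. Its groups did not overlap, but with a log2 fold change of 0.21 (standard error 0.07, 95% interval 0.04 to 0.39) it did not pass (adjusted p = 0.170 from limma) in this or in any alternative fit. For Pef1 the log2 fold change was 0.41 (adjusted p = 0.0517), and for Cul3 it was -0.15 (adjusted p = 0.343).

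Trappc2 encodes sedlin, a subunit of the TRAPP tethering complex that TANGO1 recruits to exit sites, and human mutations in it cause a skeletal dysplasia. Its probe set (1432158_a_at) read 393, 362 and 436 in AA cultures, against 442, 370 and 366 in control cultures. The groups overlapped, and the log2 fold change was 0.062 (95% interval -0.17 to 0.29, adjusted p = 0.826), or -0.036 after median centring.

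Ordered by the brightest probe set, the log2 fold changes ran from Sec16a (0.64) through Sec16b (0.49), Sec23ip (0.35), Tfg (0.34), Mia3 (0.29), Pdcd6 (0.21), Trappc2 (0.062), Mia2 (0.013) and Klhl12 (-0.0082) to Preb (-0.082). The 95% intervals overlapped for all 9 pairs of neighbours in this order and for 35 of the 45 pairs in all. The interval of Sec16a lay above those of Pdcd6, Trappc2, Mia2, Klhl12 and Preb, and that of Sec16b above those of Mia2, Klhl12 and Preb. Differences between genes were not themselves tested. In 13 of the 19 probe sets AA was above control in each of the 3 same-numbered pairs, against 18.9% of all probe sets and 23.8% of those above the median signal, and in 1 it was below in each, against 20.4% of all. In 12 of the 19 every AA signal was above every control signal, against 11% of all probe sets and 15.4% of those above the median signal. In 0 of the 19 was every AA signal below every control signal, against 11.8% of all.

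**Figure D3:**
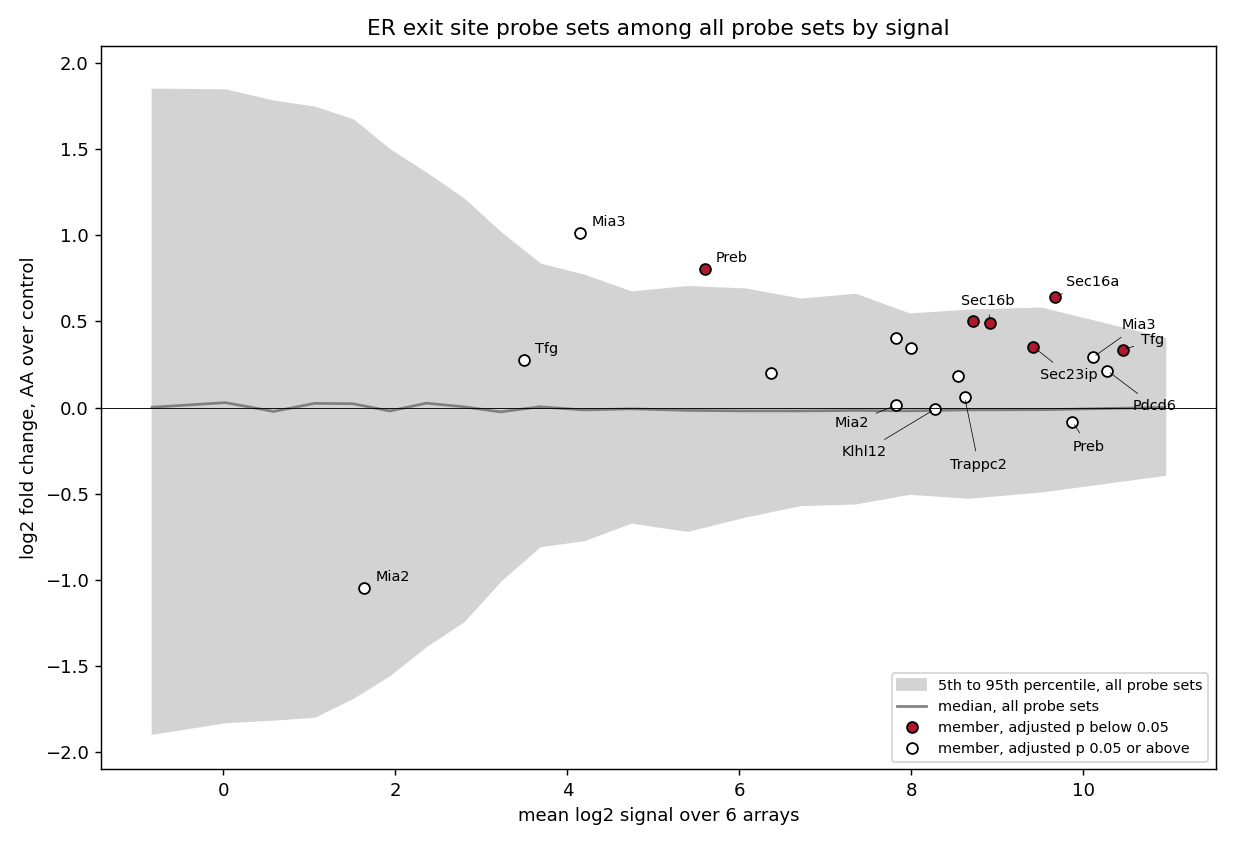
Log2 fold change, AA over control (y axis), against the mean log2 signal over the 6 arrays (x axis) for the 19 probe sets, with the 5th to 95th percentile of all probe sets shaded and their median as a line. The brightest Sec16a probe set, at 0.64, and the dimmest Preb probe set, at 0.80, lie above the band, as does the dimmest Mia3 probe set at 1.01, which did not pass.

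Lists of genes were set beside these members and counted on 1 probe set per gene, its brightest. By that count 4.06% of all genes were higher and 3.83% lower. Of 10 measured genes of the COPII coat, 5 were higher and 0 lower, with a median log2 fold change of 0.31, against -0.021 over all genes and 0.25 over the 10 members. Among those that rose were Sec13 of the outer coat (0.50, adjusted p = 0.00880), Sec24d of the cargo-binding layer (0.48, adjusted p = 0.0101) and the GTPase gene Sar1a (0.40, adjusted p = 0.0149). With a pair or an array left out, Sec13 passed in 8 of 9 fits, Sec24d in 5 and Sar1a in 3, and after median centring 0 of the 10 genes passed.

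TANGO1 also recruits the NRZ tether and its SNAREs, which bring Golgi-bound membrane to the exit site. Of 8 measured genes of that list, 3 were higher and 0 lower (median log2 fold change 0.38): Stx18 (0.41, adjusted p = 0.0211), Nbas (0.46, adjusted p = 0.0241) and Sec22b (0.35, adjusted p = 0.0260). They passed in 3, 4 and 3 of the 9 fits with samples left out, and after median centring 0 of the 8 passed. Of 13 measured TRAPP subunits other than Trappc2, 2 were higher and 0 lower (median log2 fold change 0.082), Trappc3 (0.83, adjusted p = 0.00241) and Trappc1 (0.44, adjusted p = 0.0144). Trappc3 signals were 894, 691 and 495 in AA cultures, against 570, 399 and 254 in control cultures. They overlapped between groups, and the call was lost without the replicate block (adjusted p = 0.154). Trappc3 passed in 4 and Trappc1 in 5 of the 9 fits with samples left out.

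The list of partners of the members had 16 measured genes, of which 1 was higher and 1 lower (median log2 fold change -0.098). That list also holds relatives of TANGO1 and transcription factors of the CREB3 family. Lrrk2, a kinase that binds Sec16a, rose by 0.52 on the log2 scale (adjusted p = 0.0386). It did not pass with the block dropped (adjusted p = 0.0534) and passed in 1 of 9 fits with samples left out. Otor, a secreted relative of TANGO1 in the MIA family, had signals of 99.3, 179 and 190 in AA cultures, against 250, 467 and 527 in control cultures. Every AA culture was below every control culture, and the log2 fold change was -1.37 (standard error 0.10, adjusted p = 0.000427). Without the replicate block its adjusted p was 0.0352, and the call held in 4 of the 9 fits with a pair or an array left out. For Serpinh1, which encodes Hsp47, the log2 fold change was 0.050 (adjusted p = 0.772). For the CREB3 family factors Creb3l1 and Creb3l2 it was 0.25 (adjusted p = 0.146) and 0.24 (adjusted p = 0.167).

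Among 12 measured collagen genes, the cargo of this route, 1 was higher and 2 lower, and the median log2 fold change was 0.056. Col11a1 of the minor fibrillar collagens rose (0.95, adjusted p = 0.000818), and the basement membrane chains Col4a1 (-1.39, adjusted p = 0.000464) and Col4a2 (-1.32, adjusted p = 0.00192) fell. Both type IV chains passed in all 9 fits with samples left out, and Col11a1 in 5.

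**Figure D4:**
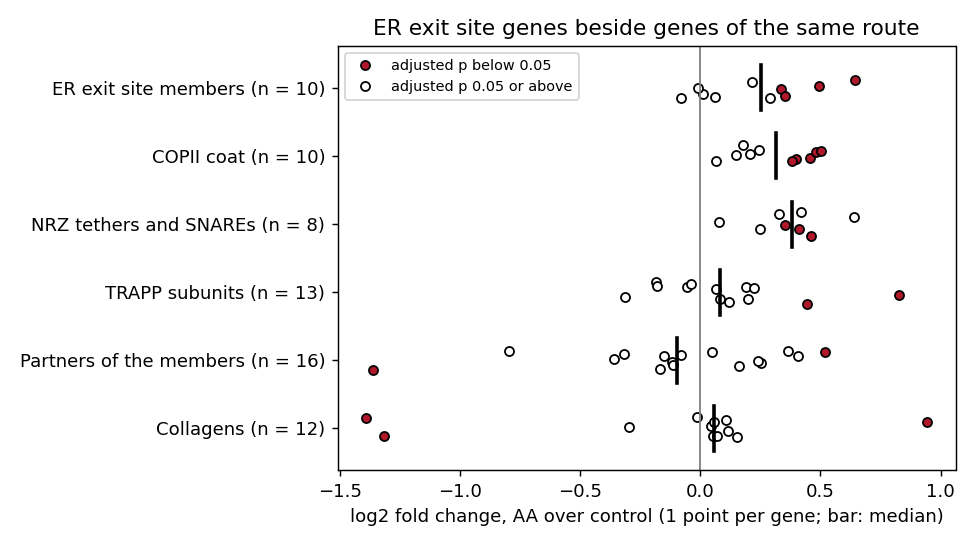
Log2 fold change, AA over control (x axis), by the brightest probe set of each gene, 1 point per gene. Rows are the 10 members and 5 lists of genes set beside them, of which the partner list also holds relatives and transcription factors. Points are filled at an adjusted p under 0.05, and a vertical bar marks each median. The median of the members is 0.25, beside 0.31 for the COPII coat, 0.38 for the NRZ list, 0.082 for the TRAPP subunits, -0.098 for the partners of the members and 0.056 for the collagens.

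Across the array AA cultures had 1219 higher and 1124 lower probe sets, or 842 and 1291 after median centring. Of 13 osteoblast markers listed 9 were measured, as Runx2, Bglap, Bglap2 and Spp1 had no probe set naming that gene alone. Of the 9, Ifitm5, Alpl, Ibsp and Pth1r were higher and 0 lower. Ifitm5, Alpl and Ibsp passed in all 9 fits with samples left out, and Pth1r in 4. Pth1r signals were 2443, 1762 and 1457 in AA cultures, against 1507, 968 and 681 in control cultures. They overlapped between groups, and the call was lost without the replicate block (adjusted p = 0.118 from limma). Sp7 and Dmp1 had a positive log2 fold change and Phex a negative one, none of them passing. The summed signal of the 9 was 22453 to 31160 in AA cultures, against 16304 to 19932 in control cultures. That sum includes Col1a1 and Col1a2, which did not pass and averaged 7122 and 8948 in AA and 6052 and 7961 in control cultures. Of 6 myofibroblast and smooth muscle markers Tagln and Actg2 were lower, and the 6 summed to 10039 to 11311 in AA and 11328 to 12852 in control cultures. Acta2 made up most of that sum and did not pass, averaging 7403 in AA and 7432 in control cultures (log2 fold change -0.12). Cnn1 had a positive log2 fold change, and Myh11 and Des a negative one, none of them passing. Myh11 averaged 1.30 in AA and 7.49 in control cultures, and Cnn1 1.83 and 1.43. Of 6 chondrocyte markers Col2a1 was higher, with signals of 242, 327 and 350 in AA cultures, against 133, 167 and 114 in control cultures. The median log2 fold change of the 6 was -0.14. Acan also had a positive log2 fold change, and Sox9, Col10a1, Comp and Matn1 a negative one, none of them passing. Sox9 averaged 169 in AA and 220 in control cultures (log2 fold change -0.33). With Col2a1 included, the 6 summed to 438 to 542 in AA and 342 to 405 in control cultures. Of 6 macrophage markers Csf1r was higher, with signals of 104, 74.6 and 83.6 in AA cultures, against 23.9, 24.7 and 25.0 in control cultures. Cd14 and Ptprc also had a positive log2 fold change, and Lyz2, Cd68 and Adgre1 a negative one, none of them passing. Lyz2 averaged 324 in AA and 378 in control cultures, and Ptprc 2.79 and 1.19. The 6 summed to 488 to 556 in AA and 430 to 527 in control cultures. None of the 5 measured adipocyte genes (of 6 listed) passed, with a summed signal of 64.9 to 84.9 in AA and 51.4 to 79.1 in control cultures. No gene of 6 endothelial ones passed either, with a summed signal of 19.6 to 39.3 in AA and 25.8 to 34.5 in control cultures. None of these markers had a signal of exactly 0. The part of these values in the results above was not tested, and in RNA of whole cultures more cells of a type cannot be told apart from more RNA per cell.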

How the data were processed

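RNA of 3 AA and 3 control cultures was measured on 6 arrays. What the authors deposited is a linear intensity per probe set. Per the labels the authors used MAS5, whose version is not given in the sources used here, and each array has a trimmed mean of 150.0 (2% left off at each end). The quantile normalization and GC-RMA of the paper's methods are not in these values. There are no detection calls, and the number of arrays limits the precision.

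Of 45101 probe sets, 64 controls were set aside. Log2 signals were quantile-normalized and fitted with limma 3.58.1 in R 4.3.3 (replicate block as in the methods' paired tests, variance trend, 2 residual and 6.18 prior degrees of freedom). The Benjamini-Hochberg adjustment ran over 45037 probe sets (threshold 0.05). The fit was run on simulated data with independent noise and no replicate effect, so that run does not bear on the member calls. Probe sets were named by GEO's platform annotation (34945 with 1 gene, 932 with several, 9160 with none). The files name no build, so only promoters carry coordinates, those of RefSeq's GRCm38.p6.

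Members, lists and tests were chosen with earlier results of these data known. All member probe sets are named, and of each pathway list, among genes that passed, the 3 of lowest p in each direction. Others were named after their values were seen: Pef1, Cul3, Serpinh1, Creb3l1, Creb3l2 and the cell type markers named above. Alternatives were no replicate block, signals as deposited, median centring, 50 added to every signal, probe sets above the median, no variance trend, the methods' t-test, averaging each gene's probe sets, and omitting each pair or array in turn.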

Additional observations from a re-analysis of the deposited data

How the results depend on the processing

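The main counts were 1219 higher and 1124 lower over the array, and 6 probe sets and 4 genes (by their brightest probe set) higher among the members. With 50 added to every signal 788 and 655 of all probe sets passed. With 1 prior variance for all signals, 0 and 0 of all probe sets, 0 member probe sets and 0 member genes passed limma. Before adjustment that fit put 2587 higher, 2616 lower and 4 member probe sets higher at p under 0.05. The methods' t-test gave the same counts of 0 after Benjamini-Hochberg, with 2612 and 2827 of all probe sets and 9 of the members at an unadjusted p under 0.05. At the methods' unadjusted p of 0.01 it gave 706 higher and 736 lower, with 3 member probe sets and 1 member gene higher. Median centring left 1 member probe set and 1 member gene. With a replicate pair or an array left out, the counts ran from 381 to 1162 higher and 339 to 960 lower for all probe sets, and from 1 to 5 member probe sets and 1 to 3 member genes. The fits with a pair or an array left out had fewer samples, and those with an array left out also had no replicate block. The cause of these differences was not tested. No member probe set was called lower in any of the alternative fits, although some had a negative log2 fold change.

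Dropping the replicate block gave 1089 higher and 1039 lower, with 5 member probe sets and 4 member genes higher, so among the members the block decides the Preb call alone. The labels give the same replicate numbers in both groups, but deviations from the group means in same-numbered cultures correlated at only 0.182, 0.025 and 0.092 (probe sets of above-median signal), so the numbers do not clearly pair the cultures. The sign of the Ctage5 probe set of Mia2 turned on the signals as deposited (-0.014) and after median centring (-0.068), and with samples left out it ran from -0.12 to 0.10. That of Trappc2 turned after median centring (-0.036) and ran from -0.048 to 0.15. Klhl12 ran from -0.030 to 0.028 and the brightest Preb probe set from -0.18 to 0.0090. None of these passed in any fit. The dim Mia2 and Tfg probe sets lie below the median signal, so no change of theirs could be read with any precision.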
